A study of Homo sapiens with 12 samples.

Results

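Circular RNAs (circRNAs) of T98G and LN229, a pair of established human glioblastoma multiforme cell lines, were compared in hypoxia. The members were the 6 hypoxia libraries of the 12 in the study, 3 of T98G and 3 of LN229, chosen by their labels. Both lines were grown in the same serum-supplemented medium and kept at 1% O2 and 5% CO2, and the other 6 libraries came from the same lines in 95% air and 5% CO2 (normoxia). How long the cells were in hypoxia is not stated in the labels. Each library is bulk RNA depleted of ribosomal RNA, and each line stands for itself only, so a difference is one between these lines and not between classes of tumour. In bulk RNA, fewer cells with a circRNA and less of it per cell cannot be told apart.

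A circRNA forms when the splicing machinery joins the end of an exon back to the start of the same or an earlier exon, which gives a closed loop without free ends. Such loops resist exonucleases and can accumulate in cells, and they are recognised in sequencing by reads that cross the back-splice junction. A host gene can give several loops from different exons. The amount of a loop depends on transcription of its host, on back-splicing and on the stability of the loop, and junction reads alone do not separate these.

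The 6 hypoxia libraries held 37973 junction reads of the 71526 in the study, on 7228 loops of 3367 named hosts. In LN229 the libraries held 6637, 6893 and 5639 reads, and in T98G 6841, 5550 and 6413. At this depth 1 read was worth 146 to 197 CPM, the scale on which reads are divided by the library's total of junction reads after TMM scaling, and which is relative to circRNAs and not to all RNA. Enough reads for a test, at least 5 in at least 3 of the 12 libraries, were found for 244 loops of 204 named hosts and for 416 hosts after summing all loops of a host.

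1 library stood apart from its group. LN229 hypoxia replicate 1 had Pearson correlations of log2 CPM across the 244 loops of 0.682, 0.720 and 0.750 with the 3 T98G hypoxia libraries, but of 0.523 and 0.313 with replicates 2 and 3 of its own line. Replicates 2 and 3 of LN229 correlated with each other at 0.689, and replicate 3 with the T98G libraries at 0.242 to 0.262. The T98G libraries correlated with each other at 0.663 to 0.745. LN229 hypoxia replicate 1 therefore had higher correlations with the T98G hypoxia libraries than with its own group. With T98G normoxia replicates 1 and 2 this library had r of -0.022 and 0.0018, and the T98G hypoxia libraries had r of -0.0193 to 0.0057. LN229 hypoxia replicates 2 and 3 had r of 0.324 to 0.473 with LN229 normoxia replicates 1 and 2. With T98G normoxia replicates 1 and 2 they had 0.280 to 0.428. In these values the split of the libraries crossed the lines, and what it followed was not tested. The T98G hypoxia libraries all lay on the same side of it, so in hypoxia line and split cannot be fully told apart. Normoxia replicate 3 of both lines stood apart too. T98G normoxia replicate 3 correlated with the T98G hypoxia libraries at 0.542 to 0.575 and with LN229 hypoxia replicate 1 at 0.544. LN229 normoxia replicate 3 correlated with the T98G hypoxia libraries at 0.691 to 0.748 and with LN229 hypoxia replicate 1 at 0.725, against 0.465 and 0.227 with the other LN229 hypoxia libraries.

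The loop of CYP24A1, the vitamin D 24-hydroxylase, moved with this split. It held 1494, 387 and 1 read in the 3 LN229 hypoxia libraries and 1327, 998 and 1369 in T98G, so that LN229 alone spanned almost the whole range. With this loop left out, LN229 hypoxia replicate 1 still correlated with the T98G libraries at 0.621 to 0.699 and with LN229 replicates 2 and 3 at 0.454 and 0.370. The same library was nearer to the T98G mean than to the mean of the other LN229 libraries in 149 of the 244 loops, against 77 loops for replicate 2 and 77 for replicate 3. The cause was not tested, and neither was whether the labels of these libraries are right. Results that rest on LN229 hypoxia replicate 1 are given with and without it.

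**Figure D1:**
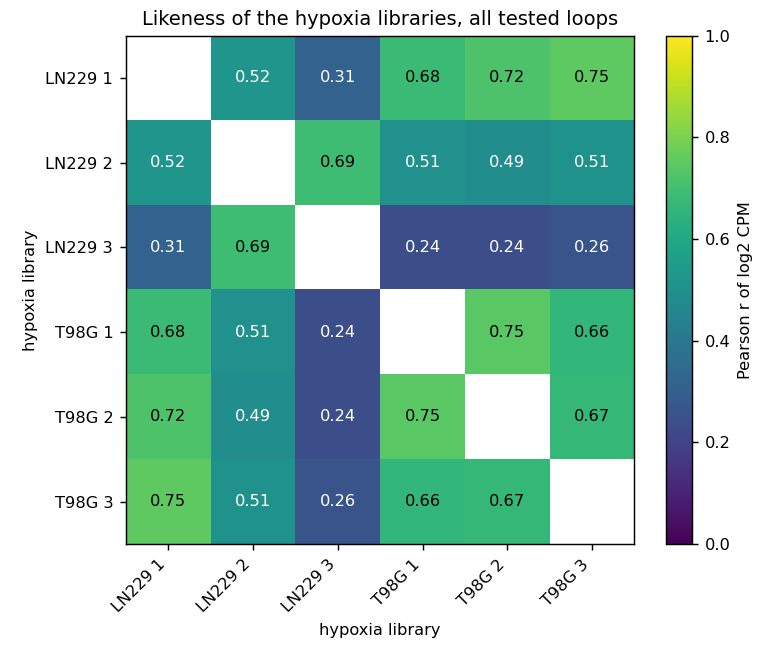
Pearson correlation of log2 CPM across the 244 tested loops for each pair of the 6 hypoxia libraries, with rows and columns as libraries and the value printed in each cell. LN229 replicate 1 had 0.682 to 0.750 with T98G and 0.313 to 0.523 with its own line.

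No loop and no host passed the test between the lines. By edgeR's quasi-likelihood test with Benjamini-Hochberg adjustment, 0 of 244 loops (0%) and 0 of 416 hosts (0%) had an adjusted p under 0.05. DESeq2 also called 0 loops and 0 hosts. An unadjusted p under 0.05 was reached by 20 loops (8.2%), of which 7 were higher in T98G (2.87%) and 13 lower (5.33%). It was reached by 42 hosts (10.1%), of which 17 were higher (4.09%) and 25 lower (6.01%). DESeq2 gave 13 loops and 33 hosts at an unadjusted p under 0.05. The median log2 fold change of T98G over LN229 was 0.03 over loops and 0.01 over hosts. TMM centres the values near 0 by construction, and with RLE size factors in its place the loop median was 0.14, so loop values near 0 depend on the scaling.

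In 38 of the 244 loops (15.6%) the 3 libraries of 1 line all lay above the 3 of the other in CPM. T98G was above in 20 (8.2%) and below in 18 (7.38%). Among hosts this held for 72 of 416 (17.3%), with T98G above in 32 (7.69%) and below in 40 (9.62%). In 14 of the 20 loops above and 14 of the 18 below, the LN229 library nearest to T98G was replicate 1, as in 19 of the 32 hosts above and 25 of the 40 below. With total junction reads in place of TMM sizes, 37 loops did not overlap, 12 with T98G above and 25 below, of which 30 were among the 38. Without LN229 replicate 1 the lines did not overlap in 106 loops (43.4%), 58 above and 48 below, and in 180 hosts (43.3%), a number that fewer libraries raise in any case. Across all 12 libraries, 0 loops and 0 hosts separated the 6 T98G from the 6 LN229 libraries.

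With LN229 hypoxia replicate 1 left out of the fit of all libraries, still 0 loops and 0 hosts passed, with 44 loops and 79 hosts at an unadjusted p under 0.05. The number of calls did depend on that library when the hypoxia libraries were fitted by themselves. A fit of the 5 hypoxia libraries without LN229 replicate 1 called 28 of 119 loops, 17 higher and 11 lower in T98G, and 27 of 215 hosts, 20 higher and 7 lower. Without replicate 2 the same fit called 0 loops and 0 hosts, and without replicate 3 it called 1 loop, that of AKAP12, and 0 hosts. All 6 hypoxia libraries together gave 2 calls of 146 loops, AKAP12 higher and GUSBP1 lower, each at an adjusted p of 0.0458. AKAP12 had 3, 0 and 0 reads in LN229, so in all these fits it met the read filter through T98G alone, where it was high. The library left out first is the one that lay near T98G, so a larger number of calls follows in part from that choice, and the 28 loops are a description. Of these 28, 13 did not overlap over all 6 libraries. With 2 LN229 libraries left, the filter of 5 reads in 3 libraries admits a loop only where T98G has reads too, so loops near 0 in T98G could not be called and the split by direction is not comparable.

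**Figure D2:**
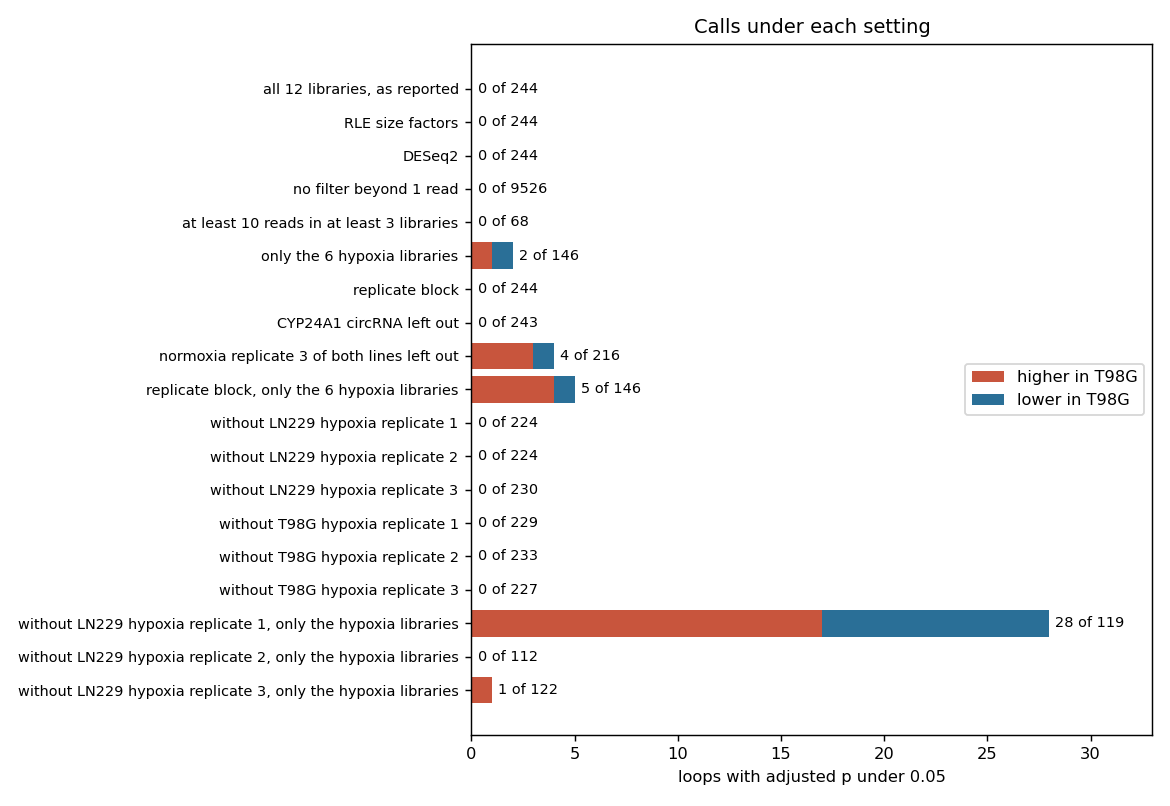
Number of loops with an adjusted p under 0.05 in T98G against LN229 hypoxia (x axis) under each edgeR or DESeq2 setting (y axis), with red for higher and blue for lower in T98G and the number tested beside each bar. The count is 0 in the fits of all 12 libraries and 28 of 119 without LN229 hypoxia replicate 1 in the fit of hypoxia libraries only.

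The loops that came nearest to a difference are named next. They were picked by this contrast as the non-overlapping loops with the smallest p, 8 in each direction, so their values describe and do not test. A loop is recognised by its junction, and the junctions that carry the account are shown for that reason, with 15 bases on each side. Capitals mark the last 4 bases of the loop's last exon and the first 4 bases of its first exon, joined by the back-splice and read 5′ to 3′. The letters come from transcripts of GENCODE release 29 (GRCh38), in which a run of whole exons has the genomic span and the spliced length that the deposited table gives for the loop.
RNF13: ataaattcaagAAAGGTGAttttacaacga
AKAP12: taaaacatcatGCAGTTGGacagagagact
PLA2G4A: cattctgcacgTGATTTGAtactccagatc
ATP5C1: tggtgctgcagCTCTTCACcaggagactaa
GUSBP1: gtagggtttcaCCAGGGCTggtgaattacc
FUT8: ggccgaatctcTCCGCATGtagagcgcatg
MIB1: tccaagtggcaATAGGCATcaagcatgatg
CAMSAP1: ttctggatcaaCAAGATAAcatccctgagg
CYP24A1: gataatacgccTCAGGGAAggggaagactg
The loop of AKAP12 is exon 3 alone and that of FUT8 is exon 3 alone of the matched transcripts. RNF13 joins the end of exon 9 back to exon 3, ATP5C1 exon 8 to exon 3, PLA2G4A exon 7 to exon 4, MIB1 exon 6 to exon 2, CAMSAP1 exon 3 to exon 2 and CYP24A1 exon 11 to exon 3. All 22 named exonic loops looked up had a match, and each gave a single junction. Positions below are those of the deposited table, in hg19.

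Of the loops higher in T98G, RNF13 had the smallest p. RNF13, an endosomal membrane ubiquitin ligase, gave a 716-nt loop at chr3:149563798-149639014 on the plus strand with 8, 12 and 6 reads in LN229 and 23, 22 and 20 in T98G. Every T98G library held more reads than any LN229 library, and LN229 replicate 1 was not the nearest. The means were 1363 ± 368 and 3900 ± 412 CPM (SD, n = 3 each). The log2 fold change was 1.49 (SE 0.49), with an adjusted p of 0.45 by edgeR. In normoxia the loop held 4, 5 and 14 reads in LN229 and 3, 9 and 13 in T98G, which overlapped.

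AKAP12, a scaffold protein that anchors protein kinase A, gave a single-exon loop of 5042 nt at chr6:151669846-151674887 on the plus strand. It held 3, 0 and 0 reads in LN229 and 10, 12 and 12 in T98G. The only LN229 reads were in replicate 1. The means were 163 ± 282 and 2049 ± 350 CPM, with a log2 fold change of 3.51 (SE 1.15, adjusted p = 0.45 by edgeR). Against LN229 replicates 2 and 3, both at 0, the loop was at least 8.58-fold higher in T98G, with a floor of 3 counts over both libraries. In normoxia the reads were 0, 0 and 18 in LN229 and 1, 1 and 3 in T98G, so that the fitted difference there had the opposite sign (-1.65), with the LN229 reads all in replicate 3.

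PLA2G4A, the cytosolic phospholipase that releases arachidonic acid for prostaglandin synthesis, gave a 443-nt loop at chr1:186862143-186880521 that carries no circBase identifier in the table. Its reads were 1, 2 and 1 in LN229 and 12, 5 and 4 in T98G. T98G replicate 1 held over 2 times the reads of either other T98G library. The log2 fold change was 2.44 (SE 0.95), with an adjusted p of 0.45 by edgeR, and in normoxia it was -1.75. PTPRM, a receptor-type tyrosine phosphatase of cell contacts, had 1, 1 and 0 reads in LN229 and 7, 4 and 7 in T98G for its 859-nt loop, a log2 fold change of 3.10 (SE 1.26). The other tested loop of PTPRM held 6, 4 and 3 reads against 6, 6 and 8, a log2 fold change of 0.77.

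ATP5C1, the gamma subunit of mitochondrial ATP synthase, gave a 799-nt loop at chr10:7839010-7844817 with 17, 5 and 3 reads in LN229 and 24, 21 and 24 in T98G. LN229 replicate 1 lay close to T98G, and the T98G libraries differed little from each other. The means were 1339 ± 1245 and 4124 ± 104 CPM, and the log2 fold change was 1.61 (SE 0.65), with an adjusted p of 0.45 by edgeR. Without LN229 replicate 1, in the fit of hypoxia libraries only, it was 2.66 with an adjusted p of 0.000107 by edgeR. ETFA, a subunit of the electron transfer flavoprotein, had 3, 0 and 0 reads against 3, 7 and 4, with a log2 fold change of 2.26 (SE 1.15, adjusted p = 0.62 by edgeR). Its LN229 reads again lay in replicate 1, at the same count as T98G replicate 1, so that only the TMM scaling kept the lines apart. STT3B, a catalytic subunit of the oligosaccharyltransferase that attaches N-glycans in the endoplasmic reticulum, had 1, 1 and 2 reads against 7, 5 and 2. The replicate 3 libraries of both lines had equal reads in it and were separated by the TMM scaling alone. The log2 fold change of this loop was 1.87 (SE 0.80), and its normoxia reads of 5, 9 and 4 in LN229 and 6, 2 and 6 in T98G overlapped.

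NIPBL, which loads cohesin onto DNA, gave a sense overlapping loop of 4137 nt with 4, 3 and 2 reads in LN229 and 9, 7 and 9 in T98G. Its means were 478 ± 158 and 1489 ± 102 CPM. The log2 fold change was 1.60 (SE 0.64), with an adjusted p of 0.45 by edgeR.

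Among the loops lower in T98G, that of GUSBP1 had the smallest p of all 244. GUSBP1 is a pseudogene related to the beta-glucuronidase gene, so its reads may come from closely similar copies and their source is uncertain. The 448-nt loop at chr5:21491430-21497305 held 11, 24 and 31 reads in LN229 and 4, 6 and 5 in T98G. LN229 replicate 1 was the lowest of its line and still above every T98G library. The means were 3538 ± 1759 and 910 ± 258 CPM, with a log2 fold change of -1.94 (SE 0.56, adjusted p = 0.45 by edgeR). In normoxia the reads were 20, 22 and 6 in LN229 and 29, 22 and 19 in T98G, so the order of the lines was not the same there.

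MIB1, a ubiquitin ligase that acts on Notch ligands, held 11, 13 and 22 reads in LN229 and 5, 5 and 5 in T98G for a 679-nt loop at chr18:19345733-19359646. The T98G libraries were equal, and every LN229 library held over 2 times as many reads. The log2 fold change was -1.44 (SE 0.53), with an adjusted p of 0.45 by edgeR. PTK2, focal adhesion kinase, had 9, 6 and 11 reads against 3, 2 and 3 in 1 of its 4 tested loops, a log2 fold change of -1.51 (SE 0.62). ACVR2A, an activin type 2 receptor, had 3, 8 and 7 reads against 1, 0 and 2, with a log2 fold change of -2.29 (SE 0.95). Neither passed (adjusted p = 0.45 by edgeR for both).

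FUT8, the fucosyltransferase that adds core fucose to N-glycans, gave a 430-nt single-exon loop at chr14:66028055-66028484 with 3, 9 and 9 reads in LN229 and 0, 1 and 1 in T98G. Replicate 1 was again the lowest LN229 library. Means of 1116 ± 554 and 124 ± 108 CPM gave a log2 fold change of -3.01 (SE 1.06), with an adjusted p of 0.45 by edgeR. In normoxia the loop held 5, 1 and 2 reads in LN229 and 1, 5 and 1 in T98G, which overlapped. CAMSAP1, which binds the minus ends of microtubules, had 12, 21 and 30 reads against 8, 9 and 9. This loop of 425 nt, at chr9:138773479-138774924 on the minus strand, had a log2 fold change of -1.11 (SE 0.44). The T98G libraries lay close together and LN229 replicate 1 lay nearest to them.

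ZNF292, a zinc finger protein, gave an intronic loop of 8281 nt with 2, 5 and 5 reads in LN229 and 0, 0 and 1 in T98G. RPRD1B, which binds the C-terminal domain of RNA polymerase II, gave a 416-nt loop with 3, 6 and 5 reads against 1, 1 and 0. Their log2 fold changes were -3.03 (SE 1.16) and -2.44 (SE 1.01), with an adjusted p of 0.45 each. T98G had at most 1 read per library in both, which is the least that can be counted.

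Without LN229 replicate 1, in the fit of hypoxia libraries only, 7 of the 16 named loops passed by edgeR. The rest of the 16 did not meet the read filter in that fit and were not tested there. All were picked from these same libraries by this contrast, so these p-values describe and do not test. RNF13 (log2 fold change 1.44, adjusted p = 0.00658), AKAP12, ATP5C1 and NIPBL (1.86, adjusted p = 0.0429) were higher in T98G. GUSBP1 (-2.26, adjusted p = 0.00017), CAMSAP1 (-1.37, adjusted p = 0.00809) and MIB1 (-1.61, adjusted p = 0.0167) were lower. AKAP12 and NIPBL had under 5 reads in both LN229 libraries of that fit and met the filter through T98G alone. The other 21 of the 28 loops included HIPK2, a nuclear kinase named after its values were seen, which had 0 reads in LN229 replicate 1, 17 and 20 in the other LN229 libraries and 3, 1 and 5 in T98G. Over all 3 LN229 libraries this loop overlapped between the lines.

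**Figure D3:**
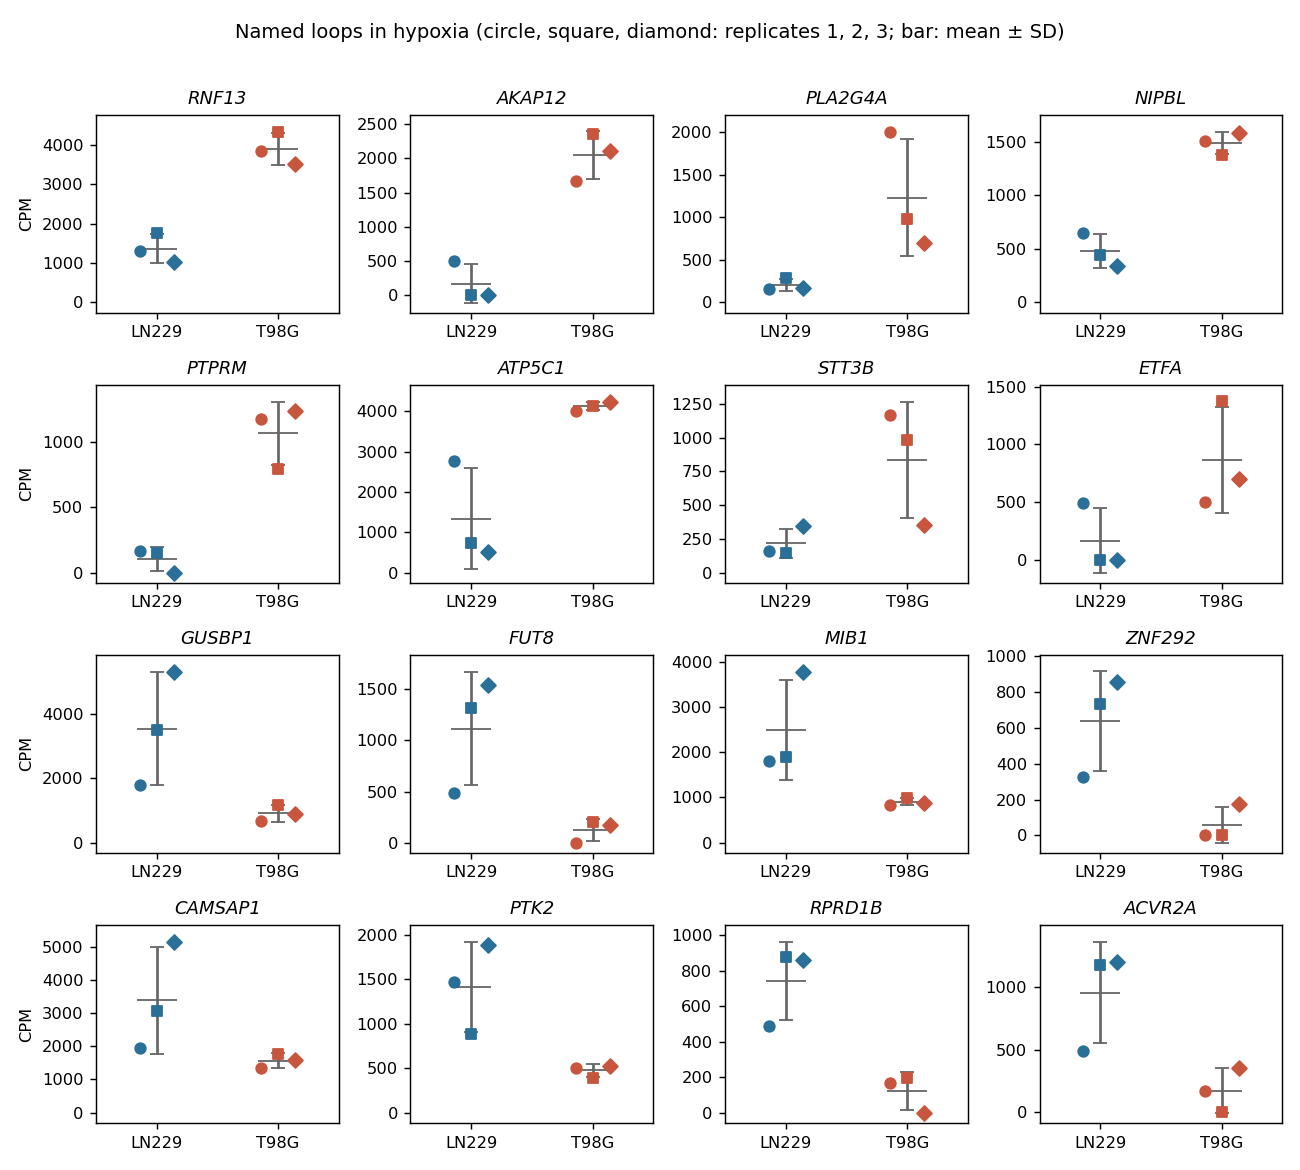
CPM (y axes, each panel with its own scale) of the 16 named loops in the hypoxia libraries, with circle, square and diamond for replicates 1, 2 and 3 and bars for mean ± SD (n = 3). The lines do not overlap in these panels, and LN229 replicate 1 is the LN229 library nearest to T98G in most of them, as in ATP5C1 and FUT8.

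The 20 loops above had a median length of 788 nt and the 18 below one of 460.5 nt, beside 654 nt over all 244. Exonic loops were 16 of the 20 and 16 of the 18, and 221 of 244 overall. A circBase identifier was carried by 18 of the 20, 17 of the 18 and 227 of 244. These features were not tested.

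**Figure D4:**
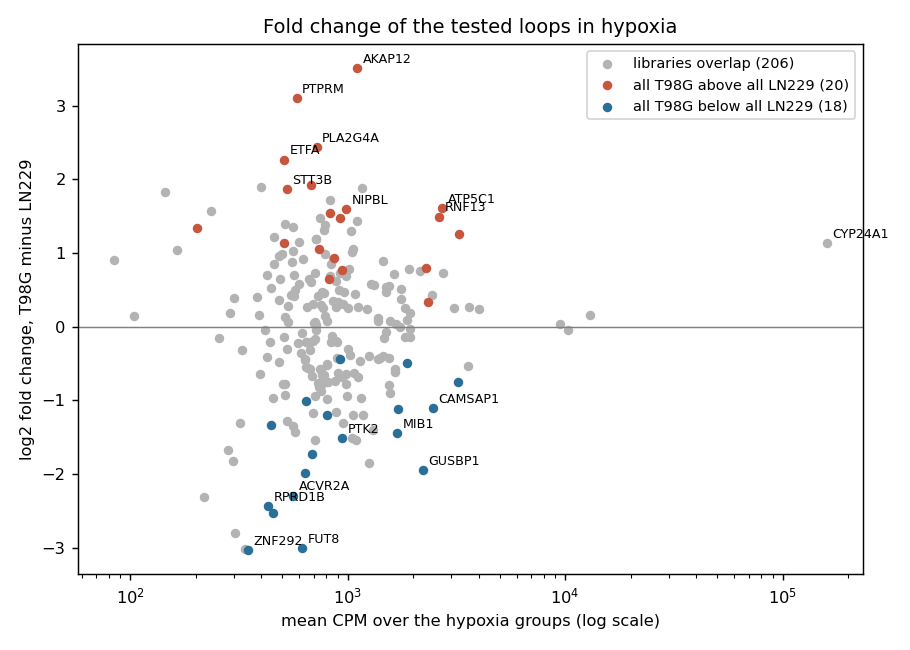
Log2 fold change of T98G over LN229 in hypoxia (y axis) against mean CPM on a log axis (x axis) for the 244 tested loops, with points as loops, red for all T98G libraries above, blue for all below and grey for overlapping lines. The 20 loops above and 18 below lie among overlapping loops of like size, and none passed the adjusted threshold.

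Several hosts stood out only after their loops were summed. SLC4A7, a sodium bicarbonate cotransporter, had 13 loops with reads in hypoxia, none of which was deep enough to test. Summed, they held 5, 16 and 17 reads in LN229 and 2, 2 and 2 in T98G, with a log2 fold change of -2.38 (SE 0.65). This was the smallest p among hosts, with an adjusted p of 0.287 by edgeR, which the other hosts named here shared unless another value is given. The T98G libraries were equal, and LN229 replicate 1 lay nearest to them. BARD1, the partner of BRCA1 in a ubiquitin ligase, also had 13 loops and none tested, with 5, 24 and 10 reads against 3, 3 and 3 and a log2 fold change of -1.83 (SE 0.60).

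TRIO, a guanine nucleotide exchange factor, had 14 loops with 11, 25 and 23 reads in LN229 and 6, 4 and 6 in T98G, a log2 fold change of -1.65 (SE 0.52). RBM39, a splicing factor, had 8, 16 and 15 reads against 4, 3 and 4, with -1.59 (SE 0.51). CLASP1, which stabilises microtubule plus ends, had 4, 15 and 12 against 3, 1 and 2, with -2.09 (SE 0.68). In all of these hosts the lowest LN229 library was replicate 1. ATF7IP, a chromatin protein of heterochromatin formation, held 1, 5 and 7 reads in LN229 and 0, 0 and 0 in T98G. It was at least 3.79-fold lower in T98G, with a floor of 3 counts over the group. MIB1 and GUSBP1 were also among the 8 hosts below, with 14, 20 and 28 against 5, 6 and 7 and with 11, 26 and 31 against 4, 6 and 5.

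Among hosts higher in T98G, PLCE1, a phospholipase C that responds to Ras, had the smallest p of that direction (adjusted p = 0.287 by edgeR). Its only loop with reads in hypoxia held 0, 0 and 1 read in LN229 and 11, 3 and 2 in T98G, so most of its reads came from T98G replicate 1. The means were 53.8 ± 93.1 and 924 ± 778 CPM. MTHFD2L, a mitochondrial enzyme of folate metabolism, had 1, 1 and 0 reads against 7, 4 and 5, with a log2 fold change of 2.95 (SE 1.05). TBC1D31, a centrosomal protein, had 12 loops with 15, 18 and 5 reads against 32, 24 and 29, with 1.35 (SE 0.53) and an adjusted p of 0.349. RNF13 kept the same order over its 8 loops, with 13, 21 and 8 reads against 37, 28 and 24 and a log2 fold change of 1.28 (SE 0.43). HLA-C, a class I antigen-presenting molecule, had 1, 1 and 0 reads against 7, 3 and 3. Its near-identical relatives make the source of these reads uncertain. LZIC held 1, 3 and 2 reads against 8, 7 and 5, with a log2 fold change of 1.88 (SE 0.72, adjusted p = 0.346 by edgeR). AKAP12 and PLA2G4A completed the 8 hosts above with log2 fold changes of 3.14 (SE 1.15) and 2.46 (SE 0.89).

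Of these 16 hosts 6 passed by edgeR without LN229 replicate 1 in the fit of hypoxia libraries only. AKAP12, RNF13 (log2 fold change 1.25, adjusted p = 0.024) and TBC1D31 (1.51, adjusted p = 0.0104) were higher in T98G, and GUSBP1, MIB1 (-1.78, adjusted p = 0.00705) and TRIO (-1.94, adjusted p = 0.0025) were lower. The AKAP12 host had 0 reads in both LN229 libraries of that fit and met the read filter through T98G alone. LZIC was tested in that fit and did not pass. The rest of the 16, among them SLC4A7 with the smallest p over all libraries, did not meet its read filter. These hosts too were picked from the same libraries, so these p-values describe and do not test.

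Loops of the same host did not always share a direction. The intronic loop of ZNF292 was lower in T98G (-3.03), while its other tested loop held 7, 4 and 6 reads in LN229 and 11, 5 and 5 in T98G, a log2 fold change of 0.44. The 4 tested loops of PTK2 ranged from -1.51 to 0.58. Its other 3 loops held 4, 4 and 1 reads against 6, 5 and 1, then 9, 7 and 5 against 7, 6 and 2, and 8, 6 and 1 against 7, 4 and 3, and all of these overlapped. CEP192, a centrosome protein, had 3 tested loops with log2 fold changes from -1.68 to 0.36. The difference between loops of a host was not tested.

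Most of the 10 most abundant loops had log2 fold changes near 0 and overlapping libraries. CDR1, whose antisense loop is known for its many sites for miR-7, held 94, 72 and 65 reads in LN229 and 84, 67 and 79 in T98G, with a log2 fold change of 0.15 (SE 0.92). SPECC1 held 59, 82 and 58 against 47, 63 and 59, and HIPK3, host of a well-known circRNA of its large second exon, 56, 79 and 44 against 73, 49 and 40. Their log2 fold changes of -0.04 (SE 0.63) and 0.03 (SE 0.47) were near 0 with wide errors, and their signs changed with the setting. CYP24A1 had a log2 fold change of 1.13 with an SE of 2.96, and an adjusted p of 0.897 by edgeR. That SE and those of CDR1, SPECC1 and HIPK3 rest on the spread within all 4 groups of the 12-library fit, normoxia included. CDR1 had 12331 ± 2607 and 13715 ± 448 CPM in LN229 and T98G hypoxia. Its normoxia reads were 3, 4 and 86 in LN229 and 3, 1 and 52 in T98G. Those of SPECC1 were 11, 12 and 69 against 6, 6 and 39. In normoxia the CYP24A1 loop held 2, 2 and 1870 reads in LN229 and 0, 1 and 675 in T98G. With LN229 replicate 1 left out of the 12-library fit its log2 fold change was 2.88 (adjusted p = 0.74 by edgeR).

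RBM33 and FGD6 were the members of the 10 most abundant whose lines did not overlap. RBM33, an RNA-binding protein, held 21, 28 and 27 reads in LN229 and 18, 14 and 8 in T98G (-0.75, SE 0.44). FGD6, a guanine nucleotide exchange factor, held 25, 9 and 2 reads in LN229 and 28, 24 and 25 in T98G (1.26, SE 0.94). In the fit of hypoxia libraries without LN229 replicate 1, FGD6 had 2.38 (adjusted p = 0.00017 by edgeR) and RBM33 -0.86 (adjusted p = 0.0451 by edgeR), and with all 6 hypoxia libraries and a replicate block FGD6 had 1.42 (adjusted p = 0.0149 by edgeR). LN229 replicate 1 was at the T98G level in FGD6, whose normoxia reads were 0, 0 and 25 in LN229 and 0, 1 and 17 in T98G. PLOD2, a collagen lysyl hydroxylase of the hypoxia response, held 33, 32 and 15 reads against 14, 12 and 23 and overlapped (-0.53, SE 0.42). RARS, MAN1A2 and XPO1 had log2 fold changes of 0.24, 0.27 and 0.25, with overlapping libraries.

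In the lists of host genes, 0 members passed after adjustment, as over all features. Of the hypoxia response genes, 5 loops were tested with a median log2 fold change of -0.53, and 6 hosts with a median of 0.28, beside 0.03 and 0.01 over all. The 20 genes of that list with reads held 89, 96 and 52 reads in LN229 and 56, 48 and 77 in T98G, which overlapped, and PLOD2 alone held 45, 46 and 21 against 18, 15 and 30. Glycolysis genes held 9, 21 and 11 reads against 7, 8 and 12. The hypoxia response medians without LN229 replicate 1 were -0.34 over 5 loops and 0.13 over 5 hosts.

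Splicing factors and ubiquitin ligases had negative medians among hosts. All 5 tested splicing hosts were lower in T98G, beside 202 of all 416 hosts, with a median of -0.51 and 1 of them not overlapping, beside 17.3% of all hosts. With the CYP24A1 loop left out of the totals, and likewise without LN229 replicate 1 (median -0.57), 4 of 5 were lower. In reads, the 26 splicing genes with reads held 74, 101 and 83 reads in LN229 and 60, 54 and 58 in T98G. The LN229 libraries all lay above the T98G libraries, which was not tested. RBM39 was the host that did not overlap, while PTBP3, a polypyrimidine tract binding protein, held 14, 15 and 7 reads against 8, 8 and 14, and XRN2, a nuclear exonuclease, 12, 8 and 11 against 2, 8 and 5. Of 12 ubiquitin ligase hosts 8 were lower and 4 higher, with a median of -0.52, and 1 in each direction did not overlap, against 17.3% of all hosts. This median was -0.58 without LN229 replicate 1. BIRC6 held 13, 17 and 13 reads against 6, 6 and 12, and HERC4 12, 18 and 11 against 5, 5 and 12. Their list totals of 129, 209 and 179 against 126, 122 and 147 reads overlapped.

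Hosts of cell division and the genome were mixed. DNA repair hosts had a median of -0.38 over 6, with POLQ, a DNA polymerase of end joining, at 6, 24 and 9 reads against 3, 4 and 5, and the helicase DNA2 at 3, 12 and 5 against 7, 7 and 15. Chromatin hosts had a median of -0.21 over 12, of which 3 did not overlap (17.3% of all hosts) and whose members split evenly with RLE. The 8 tested loops of that list went the other way, with a median of 0.26, 6 higher and 2 lower in T98G. With only the 6 hypoxia libraries in the fit, the chromatin medians were 0.32 over 7 hosts and -0.03 over 4 loops. ASXL1, a Polycomb-associated protein, held 11, 24 and 25 reads against 6, 11 and 15, and BPTF, a nucleosome remodelling subunit, 12, 18 and 8 against 19, 12 and 15. Chromatin genes took 1.90%, 2.29% and 2.34% of junction reads in LN229 and 1.84%, 1.77% and 1.73% in T98G. These shares did not overlap, those of repair and cell cycle genes did, and none was tested. In reads, replicate 1 of both lines held 126 in chromatin genes. The repair and chromatin host medians without LN229 replicate 1 were -0.43 over 5 and -0.34 over 12, and the chromatin loop median was 0.19 over 8. Cell cycle hosts had a median of -0.09 over 9 (-0.05 over 8 without that library), with CEP192 at 12, 21 and 12 reads against 8, 11 and 10.

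Signalling and driver hosts went both ways. TGF-beta, Wnt, Notch and Hippo hosts had a median of 0.26 over 7, with SMAD2, a signal transducer of activin and TGF-beta, at 13, 6 and 1 reads against 22, 6 and 9. Of these 7 hosts 4 were higher and 3 lower in T98G. ACVR2A was lower as above, and SMURF2, a ubiquitin ligase of the pathway named after its values were seen, held 1, 9 and 11 reads against 0, 0 and 1. Matrix and adhesion hosts had a median of 0.00 over 4, and glioblastoma drivers 0.31 over 4. Leaving out LN229 replicate 1 turned the signalling and driver medians to -0.14 over 6 and -0.27 over 3, and the matrix median was 0.21 over 4. IGF1R, a growth factor receptor, held 6, 1 and 0 reads against 4, 4 and 8. Well-known circRNA hosts had a median of 0.02 over 24, with 2 below and 0 above, beside 9.62% and 7.69% of all hosts, and -0.06 without LN229 replicate 1. Prostaglandin, steroid and vitamin D hosts had a median of 1.08 over 3, CYP24A1 among them, and 2.35 without that library.

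Loops of marker genes were also counted, though junction reads do not measure the expression of the markers. The 26 endothelial, blood and immune markers had no read in any of the 6 hypoxia libraries. In normoxia they held 10, 7 and 0 reads in LN229 and 14, 7 and 3 in T98G. Of 32 mesenchymal markers 8 had reads, 11, 13 and 12 in LN229 against 5, 4 and 4 in T98G, of which ZEB1, a repressor of epithelial genes, gave 3, 7 and 7 against 3, 1 and 2. The lines did not overlap in this total, at under 20 reads per library, and the difference was not tested. Neuronal and glial genes held 111, 85 and 71 reads against 93, 75 and 89, of which CDR1 gave most, and the glial markers GFAP, OLIG2, S100B and AQP4 were at 0. MGMT and CDKN2A had no read in the 6 libraries, so their loops give no check of the lines' labels.

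The classes of loops took overlapping shares of reads in both lines. Exonic loops took 88.3% ± 1.07 of reads in LN229 and 89.1% ± 0.49 in T98G (SD, n = 3 each), with p = 0.4 by an exact two-sided permutation test, which cannot go below 0.1 with 3 against 3. Intronic loops took 3.24% ± 0.678 and 2.71% ± 0.343 (exact p = 0.3), and mitochondrial loops 0.537% ± 0.0443 and 0.732% ± 0.188 (exact p = 0.2). The CYP24A1 loop took 9.38% ± 11.7 in LN229 and 19.6% ± 1.69 in T98G (exact p = 0.4), where the LN229 spread exceeded the difference. None of the 8 such measures separated the lines as deposited. With the CYP24A1 loop left out of the totals, sense overlapping loops took 7.47% to 8.46% of reads in LN229 and 8.51% to 8.70% in T98G, which did not overlap, and the difference in exonic loops turned its sign. Without LN229 replicate 1, exonic loops (87.3% to 88.0% against 88.5% to 89.4%) and the CYP24A1 loop (0.0177% to 5.61% against 17.98% to 21.3%) lay higher in T98G, and sense overlapping and intronic loops lower, with no overlap of the libraries. These directions did not hold with the CYP24A1 loop left out as well. Exonic loops then lay lower in T98G (87.30% to 87.34% against 86.01% to 86.72%). Sense overlapping loops lay higher (7.47% to 7.96% against 8.51% to 8.70%), and intronic loops overlapped. At an equal 4298 reads, LN229 libraries held 1880, 2293 and 2253 distinct loops and T98G libraries 1948, 1935 and 1933, and with CYP24A1 left out the groups still overlapped. With LN229 replicate 1 left out the T98G libraries lay below the others in both counts.

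Of 5345 distinct loops in LN229 hypoxia and 4799 in T98G hypoxia, 2916 were found in both. These were 54.6% of the loops and 74.9% of the reads of LN229, and 60.8% and 81.3% of those of T98G. Loops present in every library of 1 line and in none of the other were rare and shallow. There were 42 for T98G and 74 for LN229, with a median of 4 reads over the 3 libraries and at most 10 and 12. Of the 42, 28 had reads in LN229 normoxia and 22 in T98G normoxia. Of the 74, 39 had reads in T98G normoxia and 48 in LN229 normoxia. ZFHX3, a transcription factor, gave the deepest T98G loop with 4, 4 and 2 reads, and ATF7IP the deepest LN229 loop with 1, 5 and 6. At so few reads, many loops missing from a line in hypoxia were read in that line in normoxia. The share of all loops for which this holds was not computed. Without LN229 replicate 1, 2406 of 4388 LN229 loops (54.8%) were shared, which were 50.1% of those of T98G, and the loops of 1 line were 116 for T98G and 295 for LN229, as fewer libraries allow more.

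Normoxia libraries of the same lines were set beside the hypoxia values. Between the lines in normoxia 0 loops and 0 hosts passed, and the difference of the line contrasts in hypoxia and normoxia passed for 0 loops and 0 hosts. Of the 38 loops that did not overlap in hypoxia 17 had the same sign in normoxia, and of the 72 hosts 41 did. Leaving out LN229 replicate 1, these were 42 of 106 loops and 81 of 180 hosts. The share with the same sign over all tested loops and hosts was not computed, so these counts describe only.

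**Figure D5:**
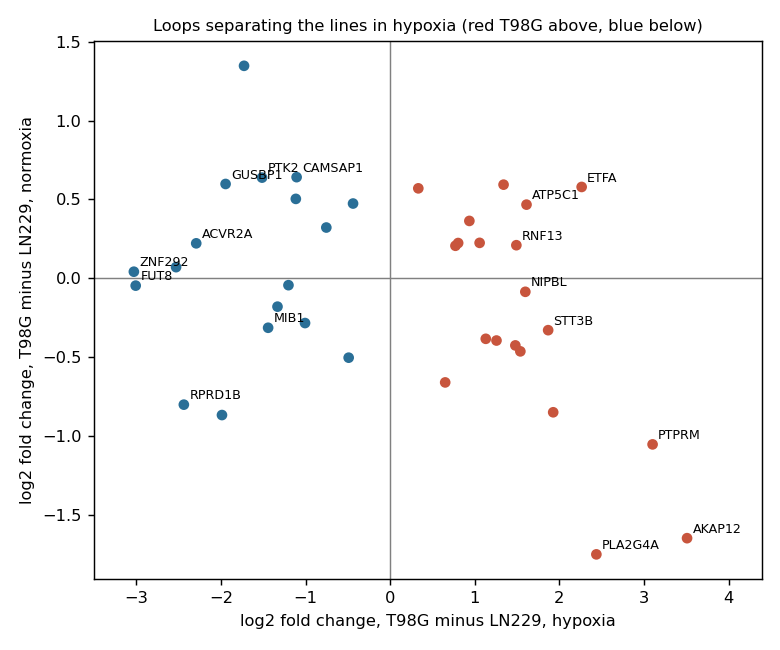
Log2 fold change of T98G over LN229 in hypoxia (x axis) and in normoxia (y axis) for the 38 loops whose lines did not overlap in hypoxia, with red for T98G above and blue for below. Of these 38, 17 had the same sign in both, and AKAP12 and PLA2G4A lie lowest in normoxia. The share with the same sign over all tested loops was not computed.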

How the data were processed

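The deposited table gives, per loop and library, a whole-number count of back-splice junction reads and a log2 value made by the authors. Neither its log2 scaling nor the circRNA caller is named in the labels. RNA was extracted with TRIzol and depleted with Ribo-Zero, per the labels' protocols. CASAVA 1.8, BWA and hg19 are listed in the submitters' processing notes, with no roles. Of 12538 loops, 9526 had a read, and 181 without a host name stayed in the totals. 1 empty line was not used.

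The counts were fitted in edgeR 4.0.16 (R 4.3.3, limma 3.58.1) with 4 group means over 12 libraries, TMM and a filter of at least 5 reads in at least 3 libraries. Two-sided quasi-likelihood F tests were adjusted by Benjamini-Hochberg over all features and read at 0.05. Each SE was derived from the test, as the absolute log2 fold change divided by the square root of its F statistic. Loops had a common dispersion of 0.261. DESeq2 1.42.0, RLE, other filters, the deposited log2 values in limma, and left-out libraries were alternatives. Composition used exact permutation tests in SciPy 1.17.1. The steps were tested on simulated data. CPM are TMM-scaled. Floors (3 counts) cover counting error only, while SDs and SEs include the spread among libraries.

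Where fewer than 8 loops or hosts per direction passed, the rule named the 8 with the smallest p whose lines did not overlap, the 10 most abundant loops, hosts whose loops differ in sign by over 2, and the most abundant members of each list. The members and lists were chosen with earlier results of these data known. Whether replicates were grown as separate cultures is not stated in the labels, and a p-value then covers the spread among these libraries alone, which may be technical. Some members of the lists are not reported here.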

Additional observations from a re-analysis of the deposited data

How the results depend on the processing

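With all 12 libraries, 0 loops and 0 hosts passed under TMM, RLE, DESeq2, no filter, a filter of 10 reads, CYP24A1 left out and each of the 6 hypoxia libraries left out in turn, and 0 loops with the deposited log2 values in limma. With replicate number as a block, 0 loops and 0 hosts passed. Replicate numbers are shared between the lines. In hypoxia the deviations of same-numbered libraries from their group means had r of -0.0707, -0.0416 and 0.0124. In normoxia, where replicate 3 of both lines stood apart, the same r were 0.426, 0.358 and 0.648. With so few libraries these r cannot settle whether the numbers pair them. Calls appeared with fewer libraries in the fit: 2 loops with only the 6 hypoxia libraries, 5 with these and the replicate block (4 higher and 1 lower in T98G), and 4 loops and 1 host without normoxia replicate 3 of both lines. AKAP12 was among the loops called in each of these settings and met their read filter through T98G hypoxia alone. The last 2 of these settings, and leaving out 1 LN229 library with only hypoxia libraries in the fit, were chosen after seeing the data. The latter gave 0 to 28 loops and 0 to 27 hosts. The cause was not tested.

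Of the log2 fold changes of named loops and hosts, 19 reversed under an alternative, all in SPECC1, HIPK3 and CDR1, which lay near 0. SPECC1 was 0.076 with RLE, 0.0772 with DESeq2, 0.0641 with the filter of 10 reads, 0.0116 with CYP24A1 left out and 0.0115 without normoxia replicate 3. It ranged from -0.1548 to 0.222 over the 6 left-out libraries and was 0.0334 without LN229 replicate 2 with only hypoxia libraries. HIPK3 was -0.0709 with no filter, -0.043 with only the hypoxia libraries, -0.0475 with these and the replicate block and -0.14 in limma. It ranged from -0.1234 to 0.2466 over left-out libraries, and with only hypoxia libraries was -0.0034 without LN229 replicate 1 and -0.2308 without replicate 3. CDR1 ranged from -0.0007 to 0.3382, and was -0.0128 without LN229 replicate 3 with only hypoxia libraries. With CYP24A1 left out of the totals, T98G minus LN229 became -0.574 percentage points for exonic loops and 0.615 for sense overlapping loops. Most named loops held under 30 reads per library, and what depth alone would resolve was not tested.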
